A study of Mus musculus with 9 samples.

Results

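The 10 genes described here are 6 matrix metalloproteinase genes (Mmp2, Mmp11, Mmp14, Mmp15, Mmp16 and Mmp23) and the 4 tissue inhibitor of metalloproteinases genes (Timp1, Timp2, Timp3 and Timp4). They were taken by symbol and are 10 of the 43548 Ensembl gene identifiers in the RNAseq table. RNAseq was carried out on 3 tissues of E14.5 mouse embryos of mixed strain, with 3 libraries per tissue, 9 in all. In the MCAGF8 cranial vault, the Msx2-Cre transgene, which acts in the surface ectoderm, had removed the stop cassette of the CAGF8 allele, so that Fgf8b was made in the skin over the skull. Control vault and control base tissue came from embryos that the labels call wildtype and that the methods describe as lacking Cre, and by the breeding scheme those embryos too inherited an allele, with its stop cassette intact. The skin was peeled away before the vault was collected, so the tissue that recombined was meant to be absent from the libraries. Each library pooled RNA from 3 of the 9 tissue samples of its group. By the methods, the control embryos gave both tissues, the base being collected after the vault. Which embryos went into which pool is not stated, so base and vault pools cannot be matched. The tests below treat control base and control vault pools as independent, and p-values measure only the spread between pools.

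Matrix metalloproteinases (MMPs) are zinc-dependent enzymes that cut collagens, proteoglycans and other proteins outside the cell, and most are made with a propeptide that has to be removed before they act. Tissue inhibitors of metalloproteinases (TIMPs) block them by occupying the active site. MMP14, held in the cell membrane, binds TIMP2 and the precursor of the gelatinase MMP2 in a complex in which MMP2 is activated, and mice without Mmp14 have defective growth of the skull and other bones.

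The genes lie on different chromosomes, apart from Mmp2 with Mmp15 on chromosome 8, Mmp11 with Timp3 on chromosome 10, and Mmp16 with Mmp23 on chromosome 4. In the GENCODE M21 annotation of GRCm38, Timp1 spans chrX:20870166-20874735 on the plus strand inside the synapsin gene Syn1, which is on the minus strand. Timp3 and Timp4 overlap Syn3 and Syn2 in the same nested, opposite-strand manner, Mmp11 overlaps Chchd10 and Mmp16 overlaps Gm11860 on the other strand, and Timp2 overlaps Cep295nl on its own strand. The library kit keeps strand, but whether strand was used in deriving expression is not stated, so values of the overlapping genes are uncertain to that extent. Promoters are shown for 3 genes whose levels separated the groups most or which stand at the centre of MMP2 activation: Timp1, Mmp23 and Mmp14. Each line gives the 250 bases before the start site of the first RefSeq start (GRCm38.p6), 5′ to 3′ on the gene's own strand, and capitals mark matches on either strand to TGTGGT, the core of RUNX sites, or GGGCGG, the core of SP1 sites.
Timp1, chrX:20869916-20870165, plus strand: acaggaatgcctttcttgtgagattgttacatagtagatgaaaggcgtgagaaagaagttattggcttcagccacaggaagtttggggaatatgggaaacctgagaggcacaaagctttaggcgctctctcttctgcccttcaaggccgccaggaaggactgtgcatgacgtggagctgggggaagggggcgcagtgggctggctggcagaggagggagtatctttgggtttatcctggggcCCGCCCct
Mmp23, chr4:155653385-155653634, minus strand: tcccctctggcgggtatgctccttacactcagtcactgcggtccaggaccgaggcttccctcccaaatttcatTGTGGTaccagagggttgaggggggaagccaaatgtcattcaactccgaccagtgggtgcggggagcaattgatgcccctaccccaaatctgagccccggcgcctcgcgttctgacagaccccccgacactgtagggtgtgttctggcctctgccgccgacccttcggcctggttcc
Mmp14, chr14:54431348-54431597, plus strand: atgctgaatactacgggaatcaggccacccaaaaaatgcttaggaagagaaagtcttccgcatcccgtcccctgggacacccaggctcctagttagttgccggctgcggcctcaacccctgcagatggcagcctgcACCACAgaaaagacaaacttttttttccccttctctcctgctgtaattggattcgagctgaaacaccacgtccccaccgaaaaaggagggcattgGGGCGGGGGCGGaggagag
RUNX2 is the factor needed for osteoblast formation. The RUNX core was found 114 bases before the Mmp14 start and 177 bases before this Mmp23 start, and it was not in the window of the other Mmp23 start or in that of Timp1. It occurs in 14.0% of all 32851 mouse promoter windows of this length. The SP1 core lay 8 bases before the Timp1 start and 19 and 13 bases before the Mmp14 start. It was also in the windows of Mmp11, Mmp15, Timp2 and Timp3, but not in those of Mmp23 and Timp4, and it occurs in 32.7% of all windows. TGANTCA, the AP-1 core through which many MMP genes respond to signals, was in none of the windows of the 8 member genes that had one, against 6.75% of all windows, and TATAAA occurs in 12.4%. These are matches of letters only.

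Values are FPKM, sequenced fragments scaled to the length of the transcript and to the mapped fragments of the library, so levels can be set beside each other between genes. In the control vault the mean order of levels was Timp2, Mmp2, Mmp14, Timp1, Timp3, Mmp11, Mmp16, Mmp23, Mmp15 and Timp4. The first 3 formed a group of overlapping values, from 257 to 408 FPKM over the 3 libraries, and Timp1 and Timp3 also overlapped each other, while every other gene stood clear of its neighbour in that order. In the MCAGF8 vault Mmp2 led (mean 407 FPKM), followed by Mmp14 (320) and Timp2 (301), which overlapped, and Timp1 lay below Mmp11, where in the control vault it lay above, and overlapped Mmp16. In the control base the same 3 genes led, Mmp15 and Mmp16 overlapped, and Mmp23 stood below both. Timp4 was lowest in each group, with a mean of 1.04 FPKM in the control vault, 0.414 in the MCAGF8 vault and 1.15 in the control base.

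**Figure D1:**
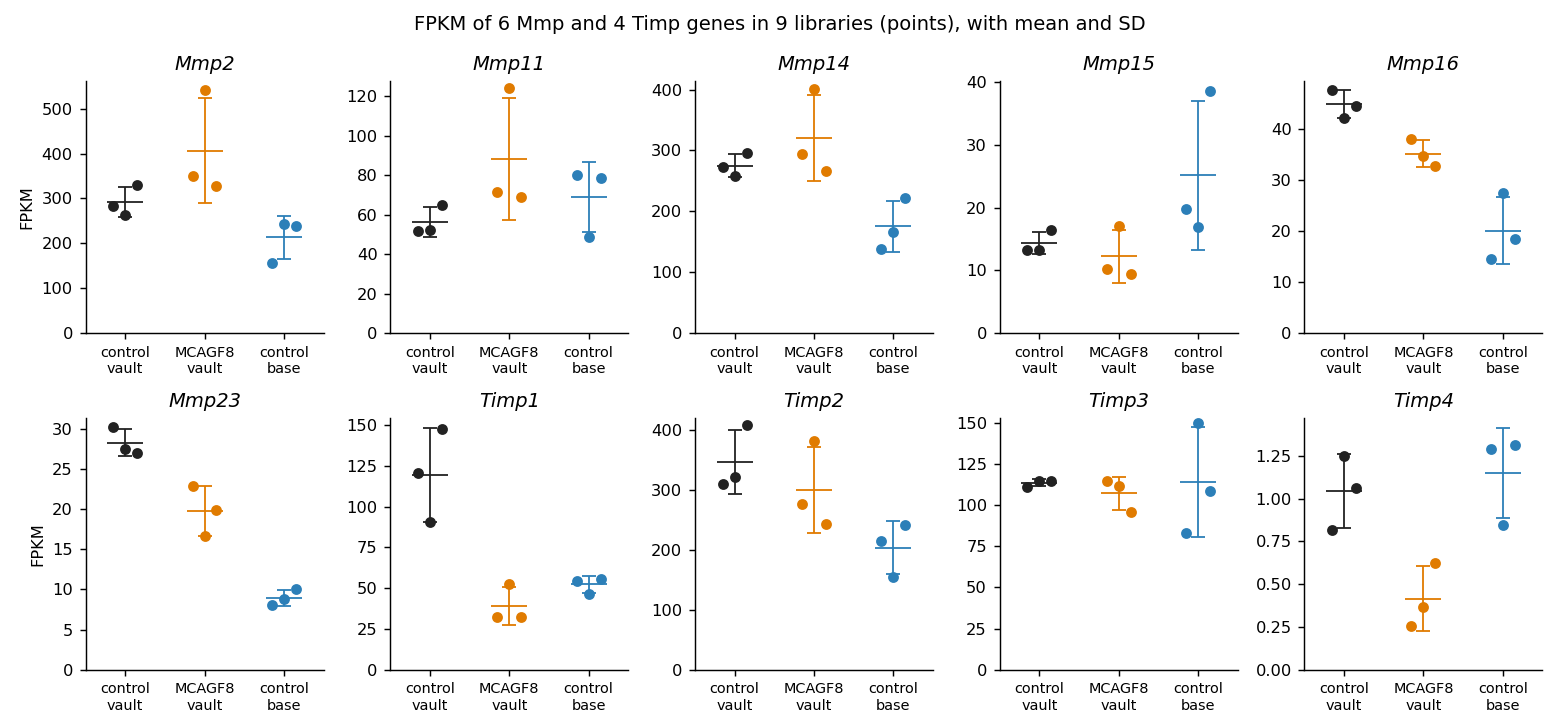
FPKM (y axis, from 0, scaled per gene) of the 6 Mmp and 4 Timp genes in the control vault, MCAGF8 vault and control base (x axis), with 1 point per library, the group mean as a wide bar and the SD of 3 libraries as whiskers. Timp1 in the control vault (90.3 to 148 FPKM) lies above both other groups, and Mmp23 forms 3 steps that do not overlap.

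The libraries did not all represent their labelled tissue alike. Summed FPKM of a library ran from 793249 to 1315981, and 16006 to 17281 genes per library reached 1 FPKM. The 8 chondrocyte markers (such as Col2a1 and Acan) summed to 5678 FPKM in control base replicate 2 but to 470 and 708 in replicates 1 and 3, below the control vault (909 to 1263). In the MCAGF8 vault these markers summed to 1282 to 2516, above the control vault and above base replicates 1 and 3. The 5 neuron markers found were at 254 to 976 in the base against 93.4 to 173 in the control vault and 145 to 197 in the MCAGF8 vault. The 10 skeletal muscle markers reached 11221 FPKM in base replicate 1, 904 to 5722 in the control vault and 20.9 to 187 in the MCAGF8 vault. The 10 epidermis markers, of skin that was to be removed, were at 418 to 864 in the MCAGF8 vault, 32.9 to 117 in the control vault and 116 to 760 in the base. The 8 macrophage markers were at 261 to 410 in the MCAGF8 vault, 273 to 346 in the control vault and 128 to 301 in the base. The 7 endothelium markers were at 319 to 461, 280 to 328 and 235 to 288 in the same order. The part of these differences in the results below was not tested unless a value is given, and in bulk tissue fewer cells of a type and less RNA per cell cannot be told apart.

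Differences were tested with limma on log2(FPKM + 1) over the 18714 genes with a mean of at least 0.5 FPKM, all 10 member genes among them. The term called is used where the unadjusted p was under 0.05 and the Benjamini-Hochberg adjusted p, over all these genes, under 0.1. Log2 differences are on that scale and understate the change of genes near 1 FPKM, such as Timp4. In the MCAGF8 vault against the control vault, which asks what follows from Fgf8b in the overlying skin, 1 of the 10 genes was called, Timp1, and it was lower. Of all tested genes 0.604% were called, 0.23% higher and 0.374% lower. The groups did not overlap in 5 member genes (Mmp11 higher, and Mmp16, Mmp23, Timp1 and Timp4 lower), against 19.2% of all genes, and 3 (Mmp23, Timp1 and Timp4) had an unadjusted p under 0.05, against 6.34%. The median log2 difference of the 10 was -0.24, beside -0.01 for all genes.

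Timp1, a soluble inhibitor that acts on most secreted MMPs and poorly on several membrane-bound ones, was at 121, 90.3 and 148 FPKM in the control vault, at 32.6, 52.8 and 32.5 in the MCAGF8 vault, and at 54.5, 46.6 and 55.9 in the control base. Every control vault library lay above every other library, and the other 2 groups overlapped. The MCAGF8 mean of 39.3 ± 11.7 FPKM was 3.05-fold below the control vault mean of 119.7 ± 28.8 (SD, n = 3 each), with a log2 difference of -1.59 (SE 0.24, 95% confidence interval -2.14 to -1.04, adjusted p = 0.0478 by limma). The study compared these same libraries over all genes, so this call is no independent evidence of the direction of Timp1. The difference stayed between -1.82 and -1.42 in all 16 alternative fits, while the call was lost without control vault replicate 1 (adjusted p = 0.164 by limma) or 3 (0.182), and without MCAGF8 vault replicate 1 (0.279) or 3 (0.159), and when the replicate number was fitted as a block (0.210), although the numbers do not pair the libraries. The 8 osteoblast markers (such as Sp7, Runx2 and Ibsp) moved alongside, summing to 2128, 979 and 2294 FPKM in the control vault, 143, 230 and 125 in the MCAGF8 vault and 359, 351 and 1045 in the control base. None of the 8 was at 0 in any library, 4 of them were called lower in the MCAGF8 vault, and their part in the Timp1 result was not tested. Control vault replicates 1 and 3 were highest in both Timp1 and the osteoblast sum. Base replicate 3 (osteoblast sum 1045) had 55.9 FPKM of Timp1, and control vault replicate 2 (979) had 90.3.

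**Figure D2:**
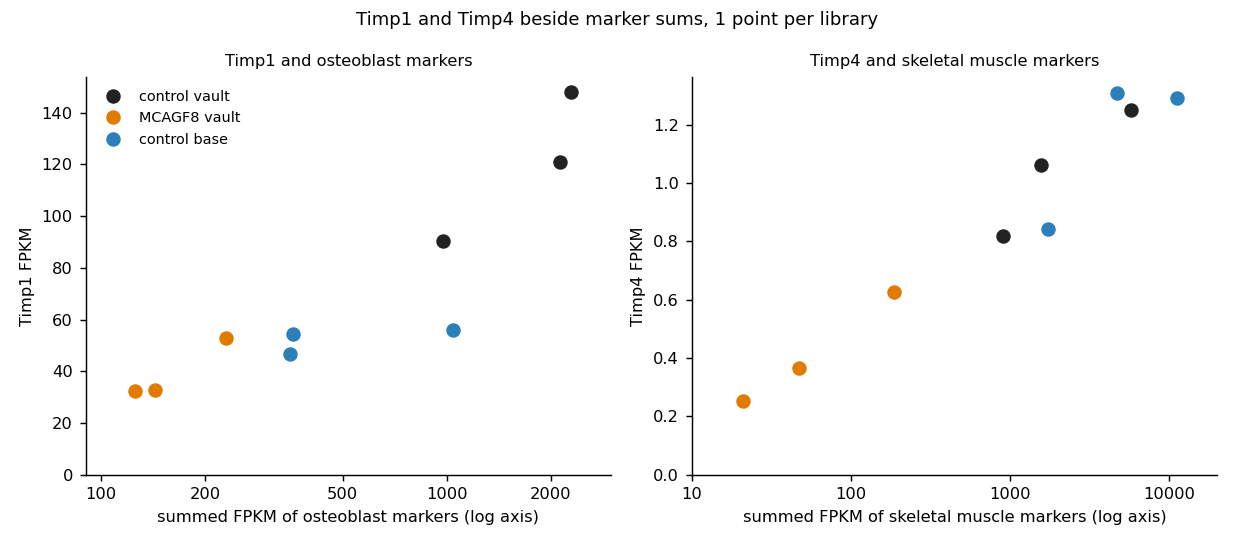
Left, Timp1 FPKM (y axis) against the summed FPKM of 8 osteoblast markers (log x axis), and right, Timp4 FPKM against the summed FPKM of 10 skeletal muscle markers (log x axis), 1 point per library coloured by group. MCAGF8 vault libraries sit at the low end of both marker sums (125 to 230 and 20.9 to 187 FPKM).

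The other 3 inhibitors were not called between the vaults. Timp2, the partner of MMP14, was at 310, 323 and 408 FPKM in the control vault and at 276, 382 and 244 in the MCAGF8 vault, which overlapped (log2 difference -0.22, 95% confidence interval -0.78 to 0.34). Timp3, which is bound to the matrix and also inhibits several ADAM and ADAMTS enzymes, was the member gene with the least spread in the control vault, at 111, 115 and 114 FPKM, and was at 115, 111 and 95.6 in the MCAGF8 vault. Its interval ran from -0.57 to 0.40 around -0.09, an estimate that turned to 0.0853 when libraries were scaled to a sum of 1000000, so a change of either sign within those bounds remains possible. Timp4, the inhibitor best known from heart and skeletal muscle, was at 0.819, 1.25 and 1.06 FPKM in the control vault and at 0.252, 0.365 and 0.625 in the MCAGF8 vault. Its groups did not overlap and its means differed 2.52-fold, but with a log2 difference of -0.53 (unadjusted p = 0.0321, adjusted p = 0.671 by limma) it was not called. All 10 skeletal muscle markers were detected in every library, 7 of them were called lower in the MCAGF8 vault, and their part in the Timp4 values was not tested.

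Among the secreted enzymes, Mmp2, gelatinase A, was at 283, 264 and 330 FPKM in the control vault and at 350, 542 and 328 in the MCAGF8 vault. The highest value came from MCAGF8 vault replicate 2, the other libraries lay close together, and the log2 difference was 0.44 (95% confidence interval -0.14 to 1.03, adjusted p = 0.964 by limma). Mmp11, stromelysin-3, which is activated inside the cell by furin and made by stromal cells, was at 51.5, 52.2 and 65.0 FPKM against 71.4, 124 and 69.1. These groups did not overlap, and the difference of 0.60 (-0.02 to 1.21, unadjusted p = 0.0578, adjusted p = 0.819 by limma) was not called. MCAGF8 vault replicate 2 was the highest of its group for 6 member genes (Mmp2, Mmp11, Mmp14, Mmp15, Timp1 and Timp2), and control vault replicate 3 was the highest of its group for the same 6. Without MCAGF8 vault replicate 2 the Mmp2 difference was 0.22 and the Mmp11 difference 0.32.

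The membrane-bound enzymes moved in different directions, none of them past the threshold. Mmp14, which cuts fibrillar collagen at the cell surface, was at 272, 257 and 296 FPKM in the control vault and at 294, 401 and 266 in the MCAGF8 vault, with a log2 difference of 0.20 (-0.32 to 0.72). Mmp15, a relative of Mmp14, was at 13.3, 13.3 and 16.4 against 10.2, 17.1 and 9.41, with a difference of -0.25 (-0.98 to 0.48). Both pairs of groups overlapped. Mmp16, another membrane-type enzyme that shares collagen-cutting work with MMP14 in bone, was at 47.8, 42.3 and 44.6 FPKM against 38.1, 34.7 and 32.9. Its groups did not overlap, with a log2 difference of -0.34 (-0.84 to 0.16, adjusted p = 0.969 by limma). Mmp23, an unusual member held in the membrane by its amino-terminal end and released by cleavage, was at 30.2, 27.5 and 27.0 FPKM against 22.8, 16.6 and 19.8. It was 1.43-fold lower without overlap (log2 difference -0.50, -0.91 to -0.10, unadjusted p = 0.0208), and with an adjusted p of 0.556 by limma it was not called.

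**Figure D3:**
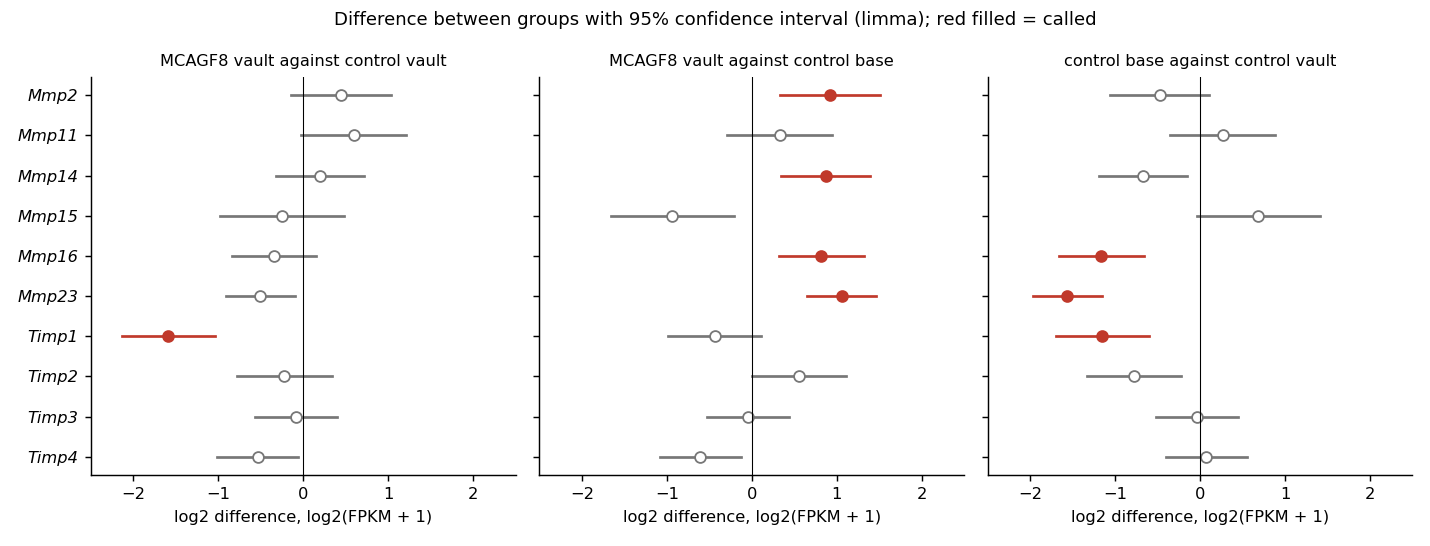
Log2 difference on the log2(FPKM + 1) scale (x axis) of each member gene (y axis) in the 3 comparisons, with the 95% confidence interval of limma as a line and called genes as red filled points. Timp1 is the called gene between the vaults, 4 Mmp genes are called against the control base, and Mmp16, Mmp23 and Timp1 are called between the control tissues.

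The summed mRNA of the 6 enzyme genes relative to that of the 4 inhibitor genes also set the MCAGF8 vault libraries apart. The 6 Mmp genes summed to 698, 657 and 779 FPKM in the control vault, 786, 1135 and 725 in the MCAGF8 vault and 417, 512 and 605 in the control base. Divided by the sum of the 4 Timp genes, this gave 1.29, 1.24 and 1.16 in the control vault, 1.86, 2.08 and 1.95 in the MCAGF8 vault and 1.17, 1.46 and 1.49 in the control base. All 3 MCAGF8 libraries were above all other libraries in this ratio, which a scaling factor per library leaves as it is and which is given as a description with no test. With Timp1 left out of the inhibitors the ratio was 1.49 to 1.65 in the control vault, 2.01 to 2.30 in the MCAGF8 vault and 1.39 to 1.72 in the control base, so the MCAGF8 libraries stood above the others without it too. Timp1 made up 20.5% ± 2.9 of the Timp sum in the control vault, 8.69% ± 0.98 in the MCAGF8 vault and 14.1% ± 1.1 in the control base (SD, n = 3 each). The ratio of Mmp2 to Timp2 was 0.81 to 0.91 in the control vault and 1.27 to 1.42 in the MCAGF8 vault, and in the control base it spread from 0.73 to 1.58. That of Mmp14 to Timp2 was 0.73 to 0.88 and 1.05 to 1.09 in the 2 vaults and 0.64 to 1.08 in the base. The sums rest mostly on a few genes. In the MCAGF8 vault Mmp2 and Mmp14 made up 45.8% and 36.5% of the Mmp sum, and Timp2 made up 66.8% of the Timp sum. The ratio is thus no shift of the whole family: Mmp15, Mmp16 and Mmp23 had lower estimates in the MCAGF8 vault than in the control vault, and no Mmp member was called there. These are sums and ratios of mRNA levels, and enzyme activity was not measured.

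**Figure D4:**
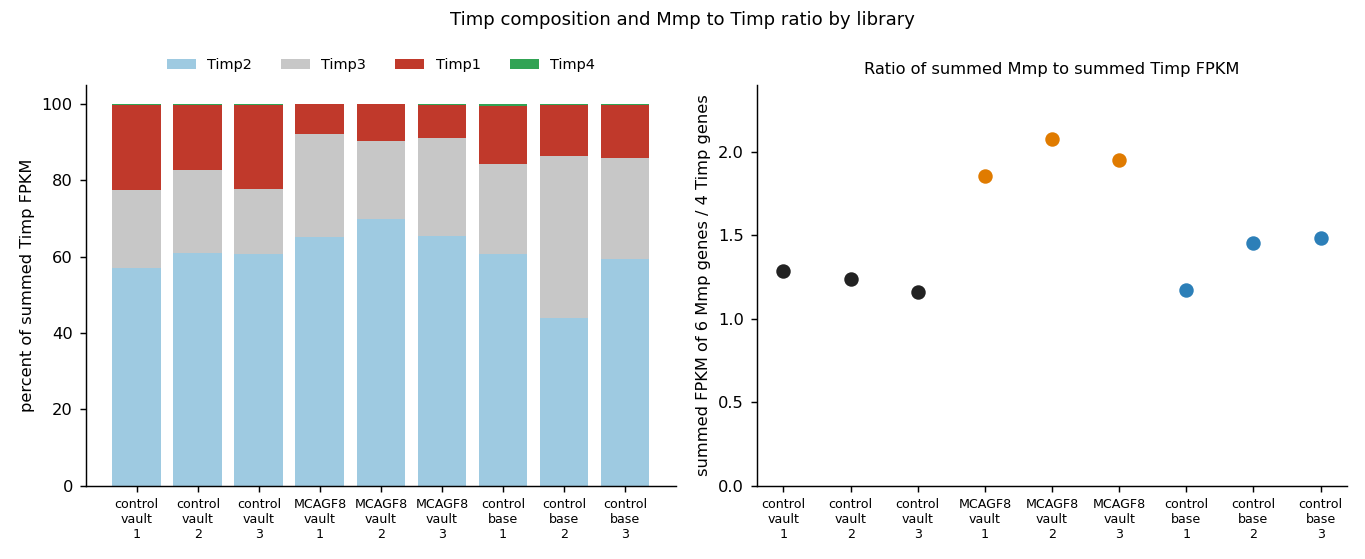
Left, the percent of summed Timp FPKM that each of the 4 Timp genes made up (y axis) in every library (x axis), and right, the summed FPKM of the 6 Mmp genes divided by that of the 4 Timp genes in the same libraries. The Timp1 share is 7.69 to 9.66% in the MCAGF8 vault and 17.1 to 22.3% in the control vault, and the ratio is 1.86 to 2.08 against 1.16 to 1.29.

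The MCAGF8 vault was next compared with the control base, which served as the source of hyaline cartilage. These groups differ in both genotype and region, and the 2 cannot be told apart. Here 4 of the 10 genes were called, each of them a metalloproteinase that was higher in the MCAGF8 vault: Mmp2, Mmp14, Mmp16 and Mmp23. Of all tested genes 8.39% were called, 2.98% higher and 5.41% lower, and under quantile normalization 1153 genes were called higher and 810 lower in place of 558 and 1013. The member groups did not overlap in 6 genes, against 21.9% of all genes, and 6 had an unadjusted p under 0.05, against 19.6%. The median difference of the 10 was 0.44, beside -0.07 for all genes.

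Mmp23 was at 8.01, 8.75 and 9.99 FPKM in the control base, so that its 3 groups formed steps that did not overlap. It was 2.22-fold higher in the MCAGF8 vault than in the base (19.8 ± 3.12 against 8.92 ± 1.00, SD, n = 3 each, log2 difference 1.06, adjusted p = 0.0126 by limma), and this call held in all 16 alternative fits. Its base values lay within 8.01 to 9.99, and the chondrocyte marker sums of those libraries ran from 470 to 5678 FPKM. The part of cell makeup in the Mmp23 values was not tested. Mmp14 was at 138, 166 and 221 FPKM in the base, 1.83-fold below the MCAGF8 vault (0.87, adjusted p = 0.0677), Mmp16 at 14.51, 27.5 and 18.4, 1.75-fold below (0.82, adjusted p = 0.0703), and Mmp2 at 156, 244 and 238, 1.91-fold below (0.92, adjusted p = 0.0824, all by limma). None of these 3 overlapped between the groups, but their calls were less firm than that of Mmp23. For Mmp2 and Mmp16 the call was lost on leaving out any library other than control base replicate 2, with adjusted p-values from 0.123 to 0.226 and from 0.112 to 0.247 by limma, and for Mmp14 on leaving out any library other than control base replicate 2 or 3 (0.107 to 0.197). Leaving out control base replicate 2 kept all 4. With libraries scaled to a sum of 1000000 the Mmp16 call was lost (adjusted p = 0.139 by limma), and with no filter that of Mmp2 (0.117). The calls of Mmp2, Mmp14 and Mmp16 were also lost with the libraries of both groups only and with the replicate block.

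The remaining 6 genes were not called against the base. Timp2, at 216, 155 and 241 FPKM in the base, was 1.47-fold higher in the MCAGF8 vault without overlap (0.56, adjusted p = 0.256 by limma). This depended on scaling, since Timp2 was called with libraries scaled to a sum of 1000000 (0.77, adjusted p = 0.0274), under quantile normalization (0.76, 0.0150) and with the length covariate (0.75, 0.0645, all by limma). Mmp15, at 19.8, 16.9 and 38.7 in the base, had a negative sign (-0.94, 95% confidence interval -1.66 to -0.21, unadjusted p = 0.0169, adjusted p = 0.147 by limma), and its groups overlapped. Among the member genes this was opposite to the membrane-bound Mmp14, Mmp16 and Mmp23, while Mmp24, a membrane-type enzyme outside the members, was lower too (-2.61). Its highest value was in base replicate 3, the library with the highest neuron marker sum (976 FPKM), whose part was not tested. Timp4, at 1.29, 0.844 and 1.31 in the base, was 2.77-fold lower in the MCAGF8 vault (-0.60, unadjusted p = 0.0185, adjusted p = 0.154 by limma) without overlap, and all 10 muscle markers were called lower there. Without control base replicate 2, Mmp15 (-1.17, adjusted p = 0.0466) and Timp4 (-0.71, adjusted p = 0.0571) passed the threshold by limma, and Timp4 did so with no filter (adjusted p = 0.0939 by limma). Timp1 (-0.44), Mmp11 (0.33) and Timp3 (-0.05, but 0.163 with libraries scaled to a sum of 1000000) overlapped. In the base, Mmp11 was at 79.9, 48.5 and 78.5 FPKM, and Timp3 at 83.3, 150 and 108. The highest Timp3 value was in the library richest in chondrocyte markers, whose part was not tested.

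Between the 2 control tissues, base against vault, 3 of the 10 genes were called, and each was lower in the base: Mmp23, Mmp16 and Timp1. Of all tested genes 3.06% were called, 1.85% higher and 1.21% lower, and quantile normalization turned 347 higher and 226 lower into 236 and 390. Values did not overlap in 7 member genes, against 15.5% of all genes, with Mmp15 higher in the base and Mmp2, Mmp14, Mmp16, Mmp23, Timp1 and Timp2 lower, and 5 had an unadjusted p under 0.05, against 12.8%. The median difference was -0.58, beside 0.07 for all genes. This comparison shares its libraries with the other 2, so their results are not independent of each other.

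Mmp23 was 3.17-fold lower in the base than in the control vault (8.92 ± 1.00 against 28.3 ± 1.73 FPKM, SD, n = 3 each, log2 difference -1.56, 95% confidence interval -1.97 to -1.15, adjusted p = 0.0060 by limma), with the call kept in all 16 alternative fits. Mmp16 was 2.23-fold lower (-1.16, adjusted p = 0.0414), a call lost without any 1 of the control vault libraries (0.124 to 0.163) or without base replicate 3 (0.102, all by limma). Timp1 was 2.29-fold lower (-1.16, adjusted p = 0.0557), a call lost without control vault replicate 1 (0.185) or 3 (0.223), base replicate 3 (0.115) or MCAGF8 vault replicate 1 (0.104, all by limma). The Mmp16 and Timp1 calls were also lost with the libraries of both groups only and with the replicate block. That of Mmp16 depended on scaling too, and was lost with libraries scaled to a sum of 1000000. Timp2 (-0.78, adjusted p = 0.189) and Mmp14 (-0.67, adjusted p = 0.228) had an unadjusted p under 0.05 and were not called by limma, though Timp2 was called under the same 3 alternatives as against the MCAGF8 vault (adjusted p = 0.0287 to 0.0452). Mmp2 (-0.48), with adjusted p = 0.536, and Mmp15 (0.69), with adjusted p = 0.432, did not overlap and missed the threshold by limma as well. Mmp11 (0.26), Timp3 (-0.04) and Timp4 (0.07, but -0.198 under quantile normalization) overlapped between the control tissues.

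The patterns of some members over the 9 libraries resembled each other. Pearson's r of the log2 values was 0.93 for Mmp2 with Mmp14, 0.92 for Mmp16 with Mmp23 and 0.81 for Mmp14 with Timp2. Among the 12933 other genes with a mean of at least 5 FPKM, the genes closest in pattern were Rarg and Yap1 for Mmp2 (both r = 0.99), Cdh3 for Mmp14 (0.99), Cib2 and Gm5540 for Mmp11 (0.99 and 0.98), Tmem229b and Trib2 for Mmp15 (both 0.98), Cald1 and Hs3st3b1 for Mmp16 (both 0.98), and Fmo1 and Ccn4 for Mmp23 (0.99 and 0.97). For the inhibitors they were Fkbp11 and Dmp1 for Timp1 (0.98 and 0.94), Shisa5 and Cnn2 for Timp2 (0.99 and 0.98), Igf1r and Klf12 for Timp3 (both 0.92), and, among 12934 genes, Myog and Mymk for Timp4 (both 0.99). Dmp1 is a bone matrix gene and one of the osteoblast markers, and Myog and Mymk act in the formation of skeletal muscle, Myog being one of the muscle markers. Libraries of a group share a tissue and a genotype, and values of 1 library share its scaling and cell makeup, so these are descriptions.

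Of the 17 other Mmp genes, 8 passed the filter, and none was called between the vaults, where 0.604% of all tested genes were. Against the base 4 of the 8 were called, beside 8.39% of all tested genes, and between the control tissues 2, beside 3.06%. Mmp13, the collagenase of hypertrophic cartilage and bone, was at 4.46, 1.54 and 3.27 FPKM in the control vault and at 0.0618, 0.182 and 0.0942 in the MCAGF8 vault, without overlap (log2 difference -1.81, unadjusted p = 0.0050, adjusted p = 0.293 by limma). Against the base, where it was at 4.09, 2.39 and 13.9, it was called lower (-2.52, adjusted p = 0.0215 by limma), as was Mmp24 (-2.61, adjusted p = 0.0286 by limma), a membrane-type enzyme known from the nervous system. For Mmp13 the study reported the same direction from these same libraries, so this call is no independent evidence of it. Mmp24 was at most 0.329 FPKM in every vault library and at 2.10, 3.96 and 18.9 in the base, in the order of Syn1 (3.65, 5.26 and 19.8 FPKM) though not in that of the neuron marker sum (422, 254 and 976), and its call was lost without MCAGF8 vault replicate 1 (adjusted p = 0.107 by limma). Mmp19 (1.38, adjusted p = 0.0133) and Mmp28 (1.00, adjusted p = 0.0708) were called higher in the MCAGF8 vault than in the base by limma. Between the control tissues Mmp24 was called higher in the base (2.44, adjusted p = 0.0713) and Mmp19 lower (-0.999, adjusted p = 0.0851, both by limma), each call being lost in most fits without a library. Mmp9, the gelatinase of osteoclasts, at means of 10.4, 21.5 and 14.9 FPKM in control vault, MCAGF8 vault and base, Mmp17 (5.15, 4.57 and 3.63) and Mmp25 (1.05, 2.44 and 2.52) were not called in any comparison. Mmp12, the macrophage elastase, was listed at 0 in the MCAGF8 vault libraries, at no more than 0.0310 FPKM in the control vault and at 2.48, 0.107 and 2.22 in the base, and it was not called against the base either (adjusted p = 0.118 by limma) or between the control tissues (0.195).

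Of 19 genes for activators, receptors and other inhibitors, 17 were tested. None was called between the vaults, 3 were higher in the MCAGF8 vault than in the base, and 2 of these 3 were lower in the base than in the control vault. Of all tested genes 0.604% were called between the vaults, 2.98% were called higher against the base and 1.21% lower between the control tissues. Reck, a membrane-anchored inhibitor of several MMPs, was at means of 56.3, 69.1 and 27.2 FPKM in the control vault, the MCAGF8 vault and the base (1.34 against the base, adjusted p = 0.0118, and -1.04 between the control tissues, adjusted p = 0.0626, by limma). Pcsk5, a proprotein convertase, was at 32.4, 30.5 and 11.9 (1.31, adjusted p = 0.0118, and -1.40, adjusted p = 0.0186, by limma). Lrp1, an endocytic receptor that clears proteases and their complexes, was at 130, 202 and 116, and was called against the base (0.84, adjusted p = 0.0952 by limma) in 1 of 9 fits that left out a library.

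Of 27 ADAM and ADAMTS genes, related metalloproteinases some of which TIMP3 inhibits, 26 were tested. None was called between the vaults, against 0.604% of all tested genes. In the MCAGF8 vault 5 were called higher than in the base, against 2.98% of all tested genes. Between the control tissues 3 were called lower in the base, against 1.21%. Adamts2, which removes the amino propeptide of procollagen, was at means of 57.5, 78.6 and 24.8 FPKM in the control vault, the MCAGF8 vault and the base (1.64 against the base, adjusted p = 0.0056 by limma). Adamts7 (1.14, adjusted p = 0.0118), the aggrecanase genes Adamts4 (1.01, adjusted p = 0.0257) and Adamts5 (0.97, adjusted p = 0.0855), and Adam12 (0.86, adjusted p = 0.0524) were the others by limma. Adamts2 (-1.20), Adam12 (-1.11) and Adamts4 (-0.83) were also called lower in the base than in the control vault, in 7, 6 and 1 of the 9 fits that left out a library. The list medians were 0.13, 0.40 and -0.29 in the 3 comparisons in the order used above, beside -0.01, -0.07 and 0.07 for all tested genes. The called differences of Mmp13, Mmp19, Reck, Pcsk5, Adamts2 and Adamts7 between the MCAGF8 vault and the base held in all 16 alternative fits, and that of Adamts4 was lost without MCAGF8 vault replicate 1 (adjusted p = 0.135 by limma). Of the others against the base, those of Mmp28, Adam12 and Adamts5 were kept in 3, 5 and 2 of the 9 fits that left out a library.

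**Figure D5:**
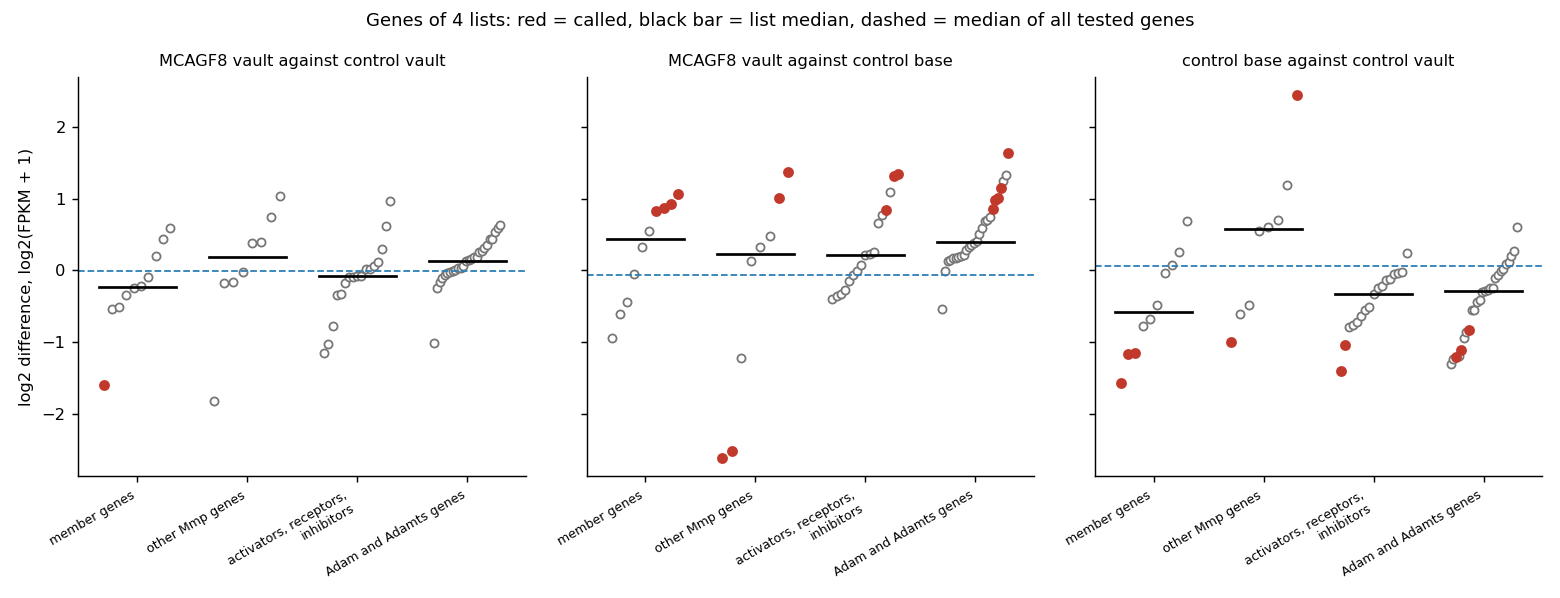
Log2 difference on the log2(FPKM + 1) scale (y axis) of the tested genes of 4 lists (x axis) in the 3 comparisons, with called genes as red filled points, the list median as a black bar and the median of all tested genes as a dashed line. Between the vaults the single red point is Timp1, and against the base the called member, activator and Adam or Adamts genes are all higher in the MCAGF8 vault.

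The synapsin genes that hold Timp genes were looked at because of the overlap. Syn1 had means of 0.918, 0.771 and 9.58 FPKM in the control vault, the MCAGF8 vault and the base, and was called lower in the MCAGF8 vault than in the base (-2.26, adjusted p = 0.0268 by limma). Between the vaults Syn1 overlapped (-0.11, adjusted p = 0.992 by limma), and its mean was highest in the base. The part of Syn1 reads in the Timp1 values was not tested. Syn2, which holds Timp4, was at 2.38, 0.963 and 8.30 FPKM, above Timp4 in each group, and was lower in the MCAGF8 vault than in the base (-2.06, adjusted p = 0.0264 by limma), as the Timp4 estimate was. The part of Syn2 reads in the Timp4 values was not tested.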

How the data were processed

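The 9 RNAseq libraries, 3 per tissue, were stranded mRNA libraries of pooled RNA, read from 1 end. The authors mapped the reads with gSNAP and used Cufflinks to obtain the FPKM they deposited, 1 value per Ensembl gene and library. The sources used here name neither the genome build, the annotation nor the program versions. The number of reads per library is not given, so the depth is unknown and precision rests on the SD of 3 pools.

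Values of 63 repeated rows were added to those of the same identifier, and 9 genes with a placeholder number in 17 cells were left out. FPKM were not rescaled. The fit used R 4.3.3 and limma 3.58.1, with lmFit, contrasts.fit and a trended eBayes, two-sided, with 1 mean per group over all 9 libraries. Tables and plots were made with Python 3.11.15, pandas 2.3.3, numpy 2.4.6 and matplotlib 3.10.9, and the fit was tested on simulated data. Gene positions came from GENCODE M21 by Ensembl identifier and promoters from RefSeq, which matched 8 of the 10 genes.

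The members and all lists were chosen with earlier results of these data known. Named genes were the 10 members, list genes called in any comparison, other Mmp genes with a mean of at least 1 FPKM in some group, and the 2 genes most like each member in pattern, 1 of which is not reported here. Alternatives were 0.1 in place of 1 added before the log, no filter, a sum of 1000000 per library, quantile normalization, the libraries of both groups only, the replicate number as a block, each library left out, and, added after the data were seen, each library's slope on transcript length as a covariate.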

Additional observations from a re-analysis of the deposited data

How the results depend on the processing

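The replicate numbers did not pair the libraries: deviations of the 9 same-numbered pairs correlated between -0.55 and 0.37. With the replicate block, 0, 1 and 1 member genes were called between the vaults, against the base and between the control tissues (in place of 1, 4 and 3), as were 19, 918 and 234 of all genes (in place of 113, 1571 and 573). Fitting only the libraries of both groups gave 1, 1 and 1 member genes and 174, 875 and 108 of all genes. Between the vaults, adding 0.1 gave 191 called genes and no filter 66, and between the control tissues the length covariate gave 1386. With each library left out in turn, 0 to 1, 1 to 6 and 1 to 3 member genes and 11 to 231, 559 to 4580 and 132 to 1322 of all genes were called, 4580 being without control base replicate 2. The cause was not tested, and some of these fits also used fewer libraries. A sum of 1000000 per library shifted the median of all genes by 0.14 between the vaults and 0.18 against the base, and quantile normalization by 0.15 against the base and -0.11 between the control tissues. The Timp2 difference of 0.77 against the base, called under the sum of 1000000, includes that shift. The sum reversed Timp3 between the vaults (0.0853) and against the base (0.16), where quantile normalization did so too (0.0131). Timp3 between the control tissues turned to 0.0456 with the length covariate, and Timp4 there to -0.20 under quantile normalization. With a library left out, Timp3 ran from -0.25 to 0.17 in each base comparison and Timp4 between the control tissues from -0.0115 to 0.176. None of these reversed differences was called. Without read counts, the limit that depth sets on Timp4 and Mmp13 cannot be given.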
